A study of Mus musculus with 9 samples.

Results

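The heat shock proteins and J-domain chaperones are the cell's general protein-folding machinery. They were chosen here by symbol, as every protein-coding gene of the HSP70 (Hspa, with the HSP110 gene Hsph1), HSP90, HSP60 and HSP10 (Hspd1, Hspe1), small heat shock protein (Hspb) and J-domain (Dnaja, Dnajb, Dnajc) series, leaving out the similarly spelled Hspbap1 and Hspbp1. The rule found 71 genes among the 46517 in the table, made up of 28 DNAJC genes, 13 HSP70 and HSP110 genes, 13 DNAJB genes, 8 small heat shock proteins, 4 DNAJA genes, 3 HSP90 genes and the HSP60 and HSP10 pair. Hspa14 has a fitting symbol but was not analysed here.

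The libraries are stranded mRNA-seq of wild-type primary monocytes on a C57BL/6 background that were grown in vitro. The title names bone marrow-derived cells cultured with OP9-DLL1, a stromal feeder line carrying a Notch ligand. There were 3 libraries, numbered 0, 1 and 2, of each of 3 subsets: cMo for conventional monocytes, intMo for intermediate monocytes and pMo for patrolling monocytes. The design text names the conventional subset in both the first and the last place, whereas the sample titles and cell types give pMo there, and the sample labels were used. All groups share the genotype, strain and culture system. The labels do not say how the subsets were separated, whether any feeder cells remained, or whether the 3 libraries of a subset came from separate cultures or animals, so p-values measure the spread between these libraries, which may be technical.

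HSP70 proteins bind exposed stretches of unfolded proteins in a cycle driven by ATP. J-domain proteins bring clients to HSP70 and stimulate its ATPase, and nucleotide exchange factors such as HSP110 release them. HSP90 finishes and holds many signalling proteins with the help of co-chaperones, HSP60 with HSP10 folds proteins inside mitochondria, and small heat shock proteins hold unfolding proteins without ATP. In stressed cells heat shock factor 1 (Hsf1) drives many of these genes through heat shock elements, whereas stress in the endoplasmic reticulum (ER) drives the ER members through the ER stress element.

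Levels are estimated counts in CPM units (scaled by TMM library size), given for libraries 0, 1 and 2 in that order, with the mean ± SD over n = 3 libraries. Changes are log2 fold changes ± SE from edgeR's quasi-likelihood test over 14059 genes, and a gene was called where its Benjamini-Hochberg adjusted p was under 0.05. "Rose" and "fell" refer to called genes. The libraries held 18455116 to 29985684 estimated counts. The sums of 8 conventional markers, among them Ly6c2 and Ccr2, were 5546 to 9779 CPM in cMo, 1102 to 2701 CPM in intMo and 536.1 to 1166 CPM in pMo. The sums of 10 patrolling markers, among them Nr4a1 and Treml4, ran the other way, at 1224 to 1540, 3842 to 4688 and 10570 to 13130 CPM. Within a subset, libraries 1 and 2 correlated at 0.986 to 0.99 (log CPM across genes, which are not independent replicates), whereas pairs with library 0 correlated at 0.951 to 0.975. The changes are therefore also given from libraries 1 and 2 alone where that matters. As these were picked for agreeing best, their spread is smaller and genes are called more easily, so their calls are no independent support. In pMo against intMo 2424 genes were called from them alone, against 701 from all libraries.

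In pMo, all 3 HSP90 genes and both mitochondrial chaperonin genes were called lower than in cMo, while the most abundant member, the constitutive HSP70 Hspa8, was called in no comparison. The Hspe1 call was marginal (edgeR adjusted p = 0.0456). It was lost in 7 of the 9 fits that leave out 1 library, and with no filter on low counts (adjusted p = 0.0508). The calls of Hspd1 and Hsp90b1 were lost in 2 of those fits each, and that of Hsp90ab1 in 1. Of the 71 genes, 60 had enough counts to be tested. In pMo against cMo 16 of the 60 were called, 26.7% against 33.1% of all genes tested. Of these, 12 fell (20.0%, against 15.9% of all genes) and 4 rose (6.67%, against 17.2%). Of the 4 that rose, Dnaja4 and Hspb1 had 5 and 4 counts in all cMo libraries together and passed the filter on low counts only through the subsets where they were higher. In intMo against cMo 9 of the 60 were called (15%, against 24.4% of all genes), with 6 falling (10%, against 10.4%) and 3 rising (5.0%, against 14%). In pMo against intMo edgeR called 0 of the 60, against 4.99% of all genes (3.29% higher and 1.69% lower). There 7 of the 60 had an unadjusted edgeR p under 0.05, against 2619 of all 14059 genes. DESeq2 called Dnajc10 higher and Dnajc13, Dnajc9 and Hspa4l lower, against 767 higher and 645 lower of all genes. With the library number as a block edgeR called 1 member, Hspa4l, lower (adjusted p = 0.0390), and 836 genes in all. The libraries of the 2 subsets did not overlap for 22 of the 60 in intMo against cMo (36.7%, against 41.3% of all genes), for 13 in pMo against intMo (21.7%, against 27.7%) and for 28 in pMo against cMo (46.7%, against 49.5%). The F test for any difference between subsets called 14 of the 60, against 33% of all genes. The median log2 change of the 60 was -0.11 in intMo against cMo (all genes -0.01) and -0.09 in pMo against cMo (all genes 0.03). These 2 comparisons share the cMo libraries. Genes that were not called ranged from -2.47 to 2.37 in intMo against cMo and from -0.47 to 1.89 in pMo against cMo.

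**Figure D1:**
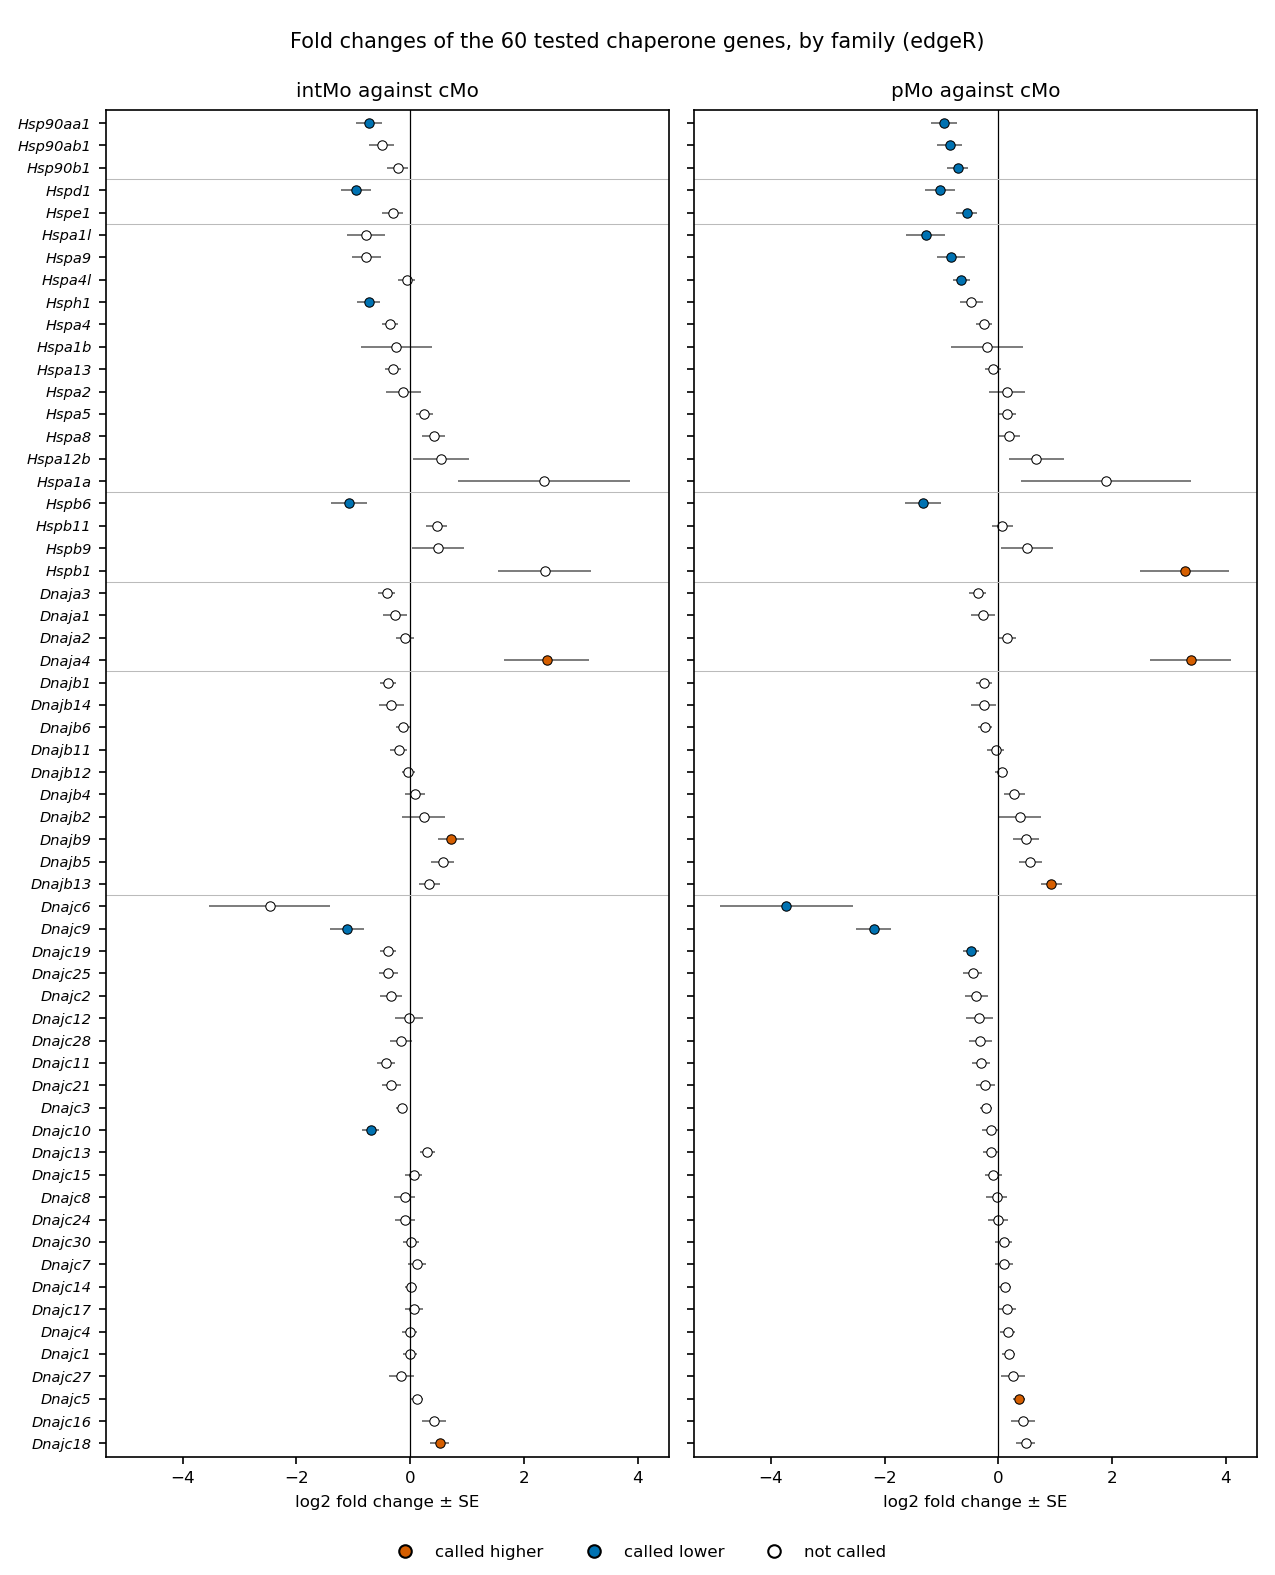
Log2 fold change ± SE (x axis) of each of the 60 tested chaperone genes (rows, grouped by family) in intMo against cMo (left) and pMo against cMo (right), from 3 libraries a subset; filled points were called. In pMo all 3 HSP90 genes and both HSP60/HSP10 genes lie to the left of 0 and were called, and 12 members in all were called lower.

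The summed level of the 71 genes was 10890 ± 939 CPM in cMo, 10920 ± 1523 CPM in intMo and 9684 ± 1248 CPM in pMo, and the ranges of the 3 subsets overlap. Hspa8 alone made up 27.9% to 35.7% of that sum in cMo, 42.0% to 45.0% in intMo and 36.9% to 45.2% in pMo. The HSP90 sum was 3171 ± 490 CPM in cMo, 2334 ± 516 CPM in intMo and 1786 ± 194 CPM in pMo, whereas the DNAJB sum stayed between 516 and 597 CPM in all 9 libraries. Per kilobase of transcript (the main annotated isoform), Hspa8 was highest at 1728 CPM per kb over all libraries. It was followed by Hsp90ab1 at 565, Hsp90b1 at 258, Hspa5 at 244, Dnajc8 at 98.1, Hspe1 at 86.2, Hsp90aa1 at 85.2 and Dnajb6 at 80.3 CPM per kb. Dnajb6 and the splicing-associated Dnajc8 were the highest J-domain genes per length, and neither was called in any comparison. Of the 71 members, 19 share over 10% of their 31-base words with transcripts of other genes, so their levels are uncertain. Among them are Dnajb6 (43.8%) and Dnajc8 (21.2%).

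Among the HSP90 genes, Hsp90aa1 encodes the stress-responsive cytosolic form. Its level was 485, 292 and 411 CPM in cMo, 185, 304 and 228 CPM in intMo, and 192, 194 and 225 CPM in pMo. The 3 pMo libraries lay close together and below every cMo library, and intMo library 1 overlapped cMo. Hsp90aa1 fell by 0.96 ± 0.23 on the log2 scale in pMo against cMo (edgeR adjusted p = 0.0108), and this call was kept without any 1 library. In intMo it fell by 0.73 ± 0.22 (edgeR adjusted p = 0.0431).

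Hsp90ab1, the constitutive cytosolic form and, after Hspa8, the most abundant member per length, was at 2339, 1592 and 1740 CPM in cMo, 950.5, 1578 and 1478 CPM in intMo, and 920, 1085 and 1128 CPM in pMo. It was lower in all pMo libraries than in any cMo library and fell by 0.86 ± 0.22 (edgeR adjusted p = 0.0150). The intMo change of -0.50 ± 0.22 was not called (adjusted p = 0.122). Hsp90b1 encodes GRP94, the HSP90 of the ER. It was at 818, 780 and 1058 CPM in cMo, 642, 914 and 722 CPM in intMo, and 468, 535 and 612 CPM in pMo. Here the pMo libraries lay below both other subsets, and Hsp90b1 fell by 0.72 ± 0.18 in pMo against cMo (edgeR adjusted p = 0.0152). From libraries 1 and 2 alone, which were picked for agreeing best, the 3 pMo changes were -0.74, -0.58 and -0.67 in the order named, all called.

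The intMo call of Hsp90aa1 did not hold in libraries 1 and 2 alone (log2 change -0.39, edgeR adjusted p = 0.181) and was kept only without cMo 1 or intMo 1 among the fits that leave out 1 library (adjusted p 0.0218 to 0.127 over the 9). In pMo against cMo, Hsp90ab1 lost its call without pMo 0 (adjusted p 0.0578, 0.00436 to 0.0578 over the 9) and Hsp90b1 without pMo 0 or pMo 1 (0.0119 to 0.0591). Hsp90aa1 shares 62.9% of its 31-base words with transcripts of other genes, mainly Gm12346, and Hsp90ab1 16.6%. Counts of such genes depend on how kallisto divided shared reads, so the Hsp90aa1 level is uncertain. Exons of Hsp90b1 overlap 1810014B01Rik on the other strand, and the sources used here do not give whether counting used strand.

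**Figure D2:**
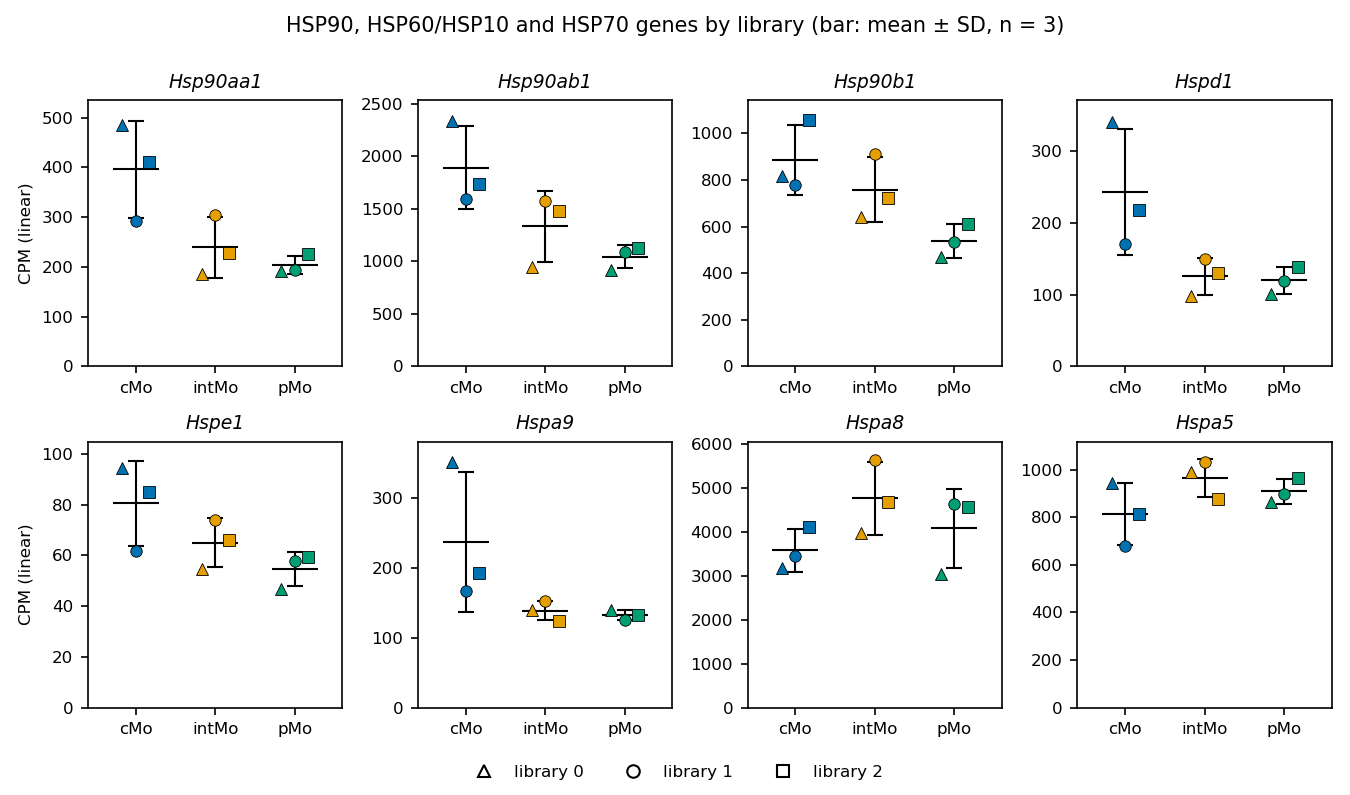
CPM (linear y axis from 0) of 8 chaperone genes in each library; symbols give the library number, long bars the mean and error bars the SD of 3 libraries. The 3 HSP90 genes, Hspd1, Hspe1 and Hspa9 sit lower in every pMo library than in any cMo library, while Hspa8 and Hspa5 overlap between cMo and pMo.

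Of 34 tested genes on a list of heat shock factors, cytosolic co-chaperones and TRiC chaperonin subunits, 13 fell and 21 were not called in pMo against cMo (38.2% lower, against 15.9% of all genes; median -0.34, all genes 0.03). In intMo against cMo 7 fell and 27 were not called (20.6% lower, against 10.4%; median -0.26, all genes -0.01). Each of the 13 genes that fell in pMo was highest in cMo 0 of the 9 libraries. The share over all genes that fell was not counted, and genes chosen as lower than cMo tend to peak in some cMo library. Of the 34, the number that fell in pMo was 6 without cMo 0, 8 without cMo 2 and 5, 5 and 4 without pMo 0, 1 and 2 (4 to 15 over the 9 left-out libraries). In intMo it ranged from 1 to 12. Fkbp4, an HSP90-bound immunophilin that serves steroid receptors, was at 223, 107 and 111 CPM in cMo, 35.6, 53.4 and 52.0 CPM in intMo, and 36.1, 34.5 and 34.4 CPM in pMo. It fell by 2.07 ± 0.29 in pMo (edgeR adjusted p = 0.000931) and by 1.65 ± 0.29 in intMo (adjusted p = 0.00387), with no overlap with cMo in either. Bag2, a nucleotide exchange factor of HSP70, was at 8.93, 3.13 and 3.46 CPM in cMo, 1.66, 1.19 and 1.16 CPM in intMo, and 1.36, 1.23 and 0.787 CPM in pMo. Its log2 changes were -1.95 ± 0.45 in intMo and -2.20 ± 0.46 in pMo, both called. Without cMo 0 the changes in pMo and intMo were -1.65 and -1.22 for Fkbp4 and -1.55 and -1.31 for Bag2, all called. Without intMo 2 the intMo call of Bag2 was lost (adjusted p 0.0558, and 0.0145 to 0.0558 over the 9).

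Stip1 (HOP, the adaptor between HSP70 and HSP90) and Ptges3 (the HSP90 co-chaperone p23), picked for description after their values were seen, fell by 0.78 ± 0.19 and 0.99 ± 0.20 in pMo (edgeR adjusted p = 0.0140 and 0.00521) and by 0.68 ± 0.19 and 0.84 ± 0.20 in intMo. The Stip1 call was lost without pMo 0 in pMo (0.00777 to 0.0515 over the 9) and without cMo 0, cMo 2, intMo 0, intMo 2, pMo 1 or pMo 2 in intMo (0.0220 to 0.0942), and the Ptges3 call in intMo without intMo 2 (0.00929 to 0.0571). The others that fell in pMo were Bag1, Stub1, Fkbp5, Ppid, Hspbp1, Tcp1, Cct5, Cct7 and Cct8. In pMo against intMo edgeR called 0 of the 34 (4.99% of all genes), and 0 had an unadjusted edgeR p under 0.05 (2619 of all 14059 genes). DESeq2 called 0 of the 34 there, against 767 higher and 645 lower of all genes. In pMo against cMo DESeq2 called 1 higher and 14 lower, against 2660 and 2609 of all genes. Hsf1, the transcription factor, was at 45.0, 37.3 and 33.9 CPM in cMo, 36.9, 28.6 and 32.9 CPM in intMo, and 39.7, 35.3 and 35.8 CPM in pMo. Its subsets overlap, and its changes of -0.24 ± 0.15 in intMo and -0.07 ± 0.15 in pMo against cMo were not called.

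**Figure D3:**
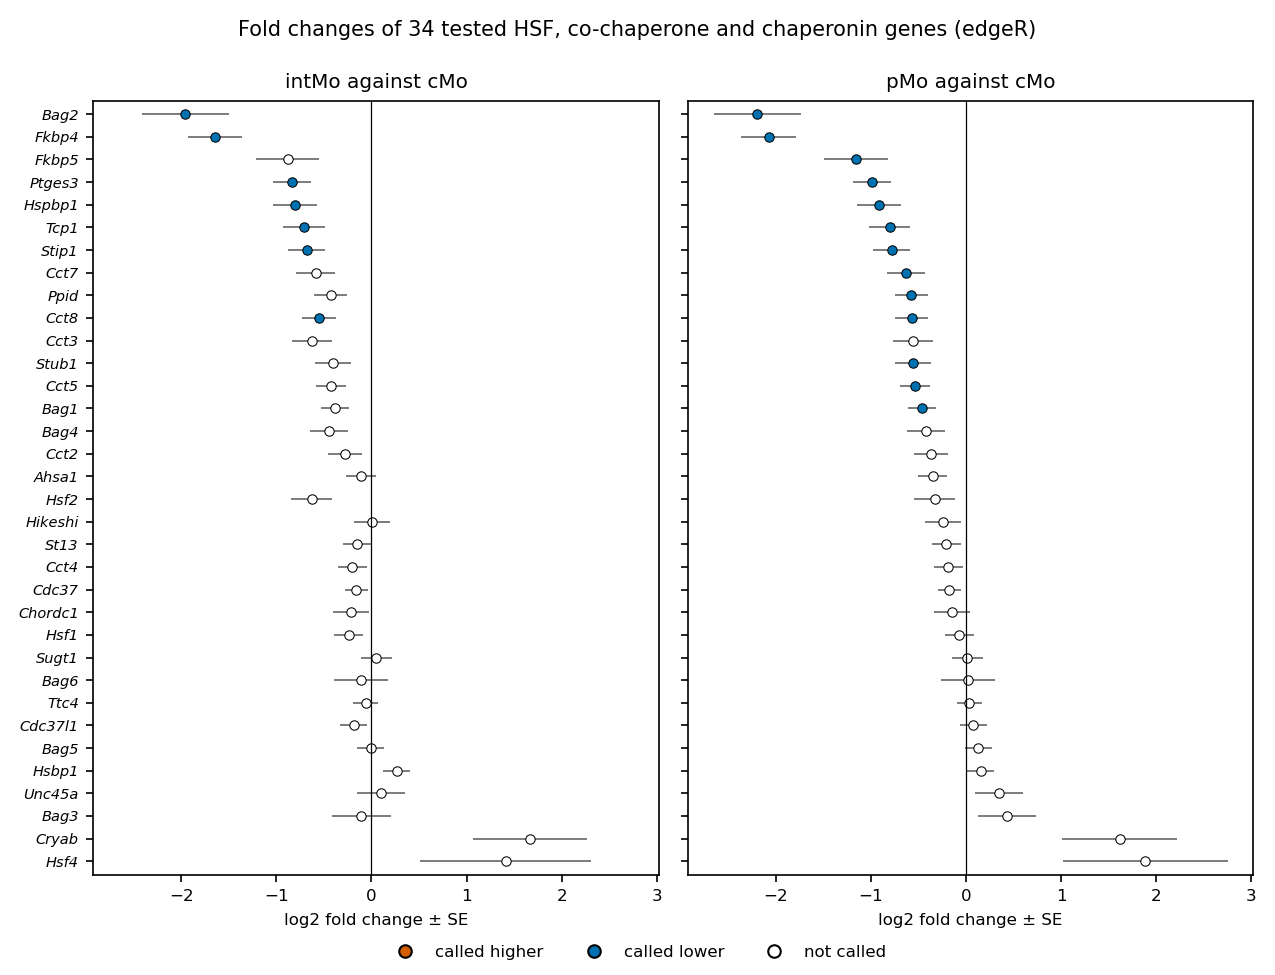
Log2 fold change ± SE (x axis) of the 34 tested heat shock factor, co-chaperone and chaperonin genes (rows) in intMo (left) and pMo (right) against cMo, 3 libraries a subset; filled points were called. In pMo 13 genes were called, all to the left of 0, with Bag2 and Fkbp4 farthest left.

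Hspd1 (HSP60) and Hspe1 (HSP10), which together form the folding chamber of the mitochondrial matrix, stand head to head on chromosome 1. Hspd1 lies at chr1:55077835-55088243 on the minus strand and Hspe1 at chr1:55088132-55091307 on the plus strand (GENCODE, mouse GRCm38). The RefSeq promoter window of 1 start of Hspd1 and that of Hspe1 (GRCm38.p6, 250 bases before to 50 after each start) overlap by 285 bases as reverse complements. These 2 windows are thus largely the same sequence. It is shown because it holds heat shock elements made of 3 units, GAANNTTCNNGAA or TTCNNGAANNTTC on either strand. These were found in 0.603% of 32851 windows and in 6 of the 74 windows of members. Those 6 belong to 4 members, Hspd1, Hspe1, Hsph1 and Dnajb6, of the 57 members with a window. Members without a window, Hsp90aa1, Hsp90ab1, Hspa8 and Hspa9 among them, were not searched for any motif. Another RefSeq window of Hspd1, farther upstream at chr1:55088194-55088493, holds no 3-unit element. In the 250 bases before 1 of the RefSeq starts of Hspd1 (chr1:55087933-55088182, minus strand) the 2 overlapping matches, 144 and 139 bases before the start, are in capitals. They lie inside the Hspd1 gene span given above.
Hspd1: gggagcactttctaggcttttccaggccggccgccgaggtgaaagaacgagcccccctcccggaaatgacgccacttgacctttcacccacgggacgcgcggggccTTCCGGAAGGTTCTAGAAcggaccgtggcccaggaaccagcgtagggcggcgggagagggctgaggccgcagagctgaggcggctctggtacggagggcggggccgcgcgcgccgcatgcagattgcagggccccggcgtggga

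Hspd1 was at 341, 170 and 218 CPM in cMo, 97.7, 150 and 130 CPM in intMo, and 100.9, 120 and 139 CPM in pMo. Every cMo library was above every other library, and cMo 0 was the highest. Hspd1 fell by 0.95 ± 0.26 in intMo (edgeR adjusted p = 0.0287) and by 1.02 ± 0.26 in pMo (adjusted p = 0.0163). Its neighbour Hspe1 was at 94.6, 61.9 and 85.0 CPM in cMo, 54.7, 74.0 and 66.2 CPM in intMo, and 46.9, 57.9 and 59.2 CPM in pMo. It overlapped between cMo and intMo (log2 change -0.31 ± 0.19, not called) and fell by 0.56 ± 0.19 in pMo (adjusted p = 0.0456).

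Library cMo 0 was the highest of all 9 for 10 of the 12 members that fell in pMo against cMo, Hspd1, Hspe1, Hspa9 and Hspb6 among them. The share over all genes that fell was not counted, and genes chosen as lower than cMo tend to peak in some cMo library. Over the 60 tested members, cMo 0 lay more than 1 log2 unit above the mean of cMo 1 and 2 for 1.67%, against 6.45% of all genes. Library cMo 0 also stood apart in the summed level of 15 markers of other blood cells, 7357 CPM against 309.4 to 1526 CPM in the other 8 libraries. Its sum of 8 conventional markers was the lowest of cMo, 5546 CPM against 8423 and 9779 CPM. Its sum of 12 cell cycle genes, 3995 CPM, was the highest of all 9. The part of these in the chaperone values was not tested. Without cMo 0, 4 members rose and 9 fell in pMo against cMo. Only 8 of those that fell were among the 12, and Dnajb14 was new. In intMo against cMo 0 rose and 2 fell without cMo 0. These were Dnajc10, the only call kept there, and Dnajb14, again new. The Hspd1 changes were then -0.70 in pMo (edgeR adjusted p = 0.0411) and -0.63 in intMo (adjusted p = 0.0757), and those of Hspe1 and Hspb6 in pMo were -0.43 (adjusted p = 0.131) and -0.97 (adjusted p = 0.0296).

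From libraries 1 and 2 alone the Hspd1 changes were smaller, at -0.47 in intMo (edgeR adjusted p = 0.0513) and -0.58 in pMo (adjusted p = 0.0175), and that of Hspe1 in pMo was -0.32 (adjusted p = 0.137). Hspd1 lost its call without cMo 0, intMo 0 or intMo 2 in intMo against cMo (adjusted p 0.0175 to 0.0882 over the 9 left-out libraries) and without pMo 0 or pMo 1 in pMo against cMo (0.00945 to 0.0605), and Hspe1 kept its call only without cMo 1 or intMo 0 (0.0164 to 0.144). Other genes share 55.8% of the 31-base words of Hspd1 and 48.1% of those of Hspe1, and their exons overlap on opposite strands, so both levels are uncertain.

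Hspa9 (mortalin) is the HSP70 of the mitochondrial matrix. It was at 352, 167 and 193 CPM in cMo, 140, 152 and 124 CPM in intMo, and 140, 125 and 133 CPM in pMo. Library cMo 0 was the highest, and the other cMo libraries still lay above all pMo libraries. Hspa9 fell by 0.84 ± 0.25 in pMo against cMo (edgeR adjusted p = 0.0303), and the intMo change of -0.77 ± 0.25 was just outside the call (adjusted p = 0.0518). In pMo the change was -0.47 in libraries 1 and 2 alone (called, adjusted p = 0.0262) and -0.44 without cMo 0, and the call was lost without any 1 of the pMo libraries (adjusted p 0.0138 to 0.0970 over the 9).

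Of 16 tested genes of mitochondrial import and quality control, 2 rose and 3 fell in pMo against cMo (31.2% called, against 33.1% of all genes; median -0.19, all genes 0.03). In intMo against cMo 2 fell, Timm50 and Htra2 (12.5% called, against 24.4%; median -0.26, all genes -0.01). Timm50, a receptor of the inner-membrane translocase, fell by 0.86 ± 0.23 in intMo, a call lost without any 1 intMo library (edgeR adjusted p 0.0203 to 0.0674 over the 9), and by 1.11 ± 0.23 in pMo. The protease Htra2 was at 108, 80.5 and 91.0 CPM in cMo, 66.1, 60.4 and 61.3 CPM in intMo, and 163, 153 and 144 CPM in pMo, with no overlap between any of the subsets. Htra2 fell by 0.58 ± 0.13 in intMo against cMo (edgeR adjusted p = 0.0136) and rose by 0.72 ± 0.13 in pMo against cMo (adjusted p = 0.00346). It was the 1 gene of the 16 called in pMo against intMo, where it rose by 1.29 ± 0.13 (edgeR adjusted p = 0.00119). Afg3l2, a protease of the inner membrane, rose by 0.74 ± 0.18 in pMo against cMo. Trap1, the mitochondrial HSP90 relative, and Spg7 fell there by 0.54 ± 0.16 and 0.39 ± 0.11.

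Hspa8 (HSC70), the constitutive cytosolic HSP70, was at 3167, 3445 and 4112 CPM in cMo, 3975, 5634 and 4668 CPM in intMo, and 3042, 4635 and 4561 CPM in pMo. The subsets overlap, and its changes against cMo of 0.41 ± 0.20 in intMo and 0.19 ± 0.20 in pMo were not called (edgeR adjusted p = 0.162 and 0.491). In libraries 1 and 2 alone the intMo change of 0.45 was called (adjusted p = 0.0425). Since 77.2% of its 31-base words occur in other genes, mainly Gm15459, this level is uncertain too.

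Hspa5 (BiP, GRP78) is the HSP70 of the ER and the usual readout of ER stress. It was at 944, 681 and 814 CPM in cMo, 990, 1032 and 877 CPM in intMo, and 863, 897 and 966 CPM in pMo. The subsets overlap, and its changes of 0.25 ± 0.14 in intMo and 0.16 ± 0.14 in pMo against cMo were not called. Hspa5 and Hsp90b1 are shown together because both carry the exact ER stress element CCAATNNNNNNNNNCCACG, searched on both strands, while Hsp90b1 was called lower in pMo and Hspa5 was not called. The element was found in 0.119% of the 32851 windows and in 3 of the 74 windows of members, the third being that of Dnajc3. In the windows below (Hspa5 chr2:34771840-34772089, plus strand; Hsp90b1 chr10:86705445-86705694, minus strand) capitals mark it, 65 bases before the Hspa5 start and 212 and 107 bases before the Hsp90b1 start. The match nearer the Hsp90b1 start is on the other strand.
Hspa5: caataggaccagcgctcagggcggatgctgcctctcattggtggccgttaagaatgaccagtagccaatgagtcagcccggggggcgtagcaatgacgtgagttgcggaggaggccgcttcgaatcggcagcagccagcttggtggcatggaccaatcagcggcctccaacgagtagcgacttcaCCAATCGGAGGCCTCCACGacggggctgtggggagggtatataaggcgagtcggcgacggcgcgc
Hsp90b1: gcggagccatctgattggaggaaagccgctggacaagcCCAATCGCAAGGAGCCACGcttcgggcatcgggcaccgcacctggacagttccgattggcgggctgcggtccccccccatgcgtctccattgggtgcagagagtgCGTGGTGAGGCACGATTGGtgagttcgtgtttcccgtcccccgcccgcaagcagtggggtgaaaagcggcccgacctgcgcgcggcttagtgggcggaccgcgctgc

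Of 26 genes on a list of ER folding and the unfolded protein response, 5 rose and 6 fell in pMo against cMo (19.2% and 23.1%, against 17.2% and 15.9% of all genes), and 1 rose and 2 fell in intMo against cMo (3.85% and 7.69%, against 14% and 10.4%). Those that fell in pMo were Sdf2l1 (log2 change -0.91 ± 0.16), P4hb (-0.84 ± 0.15), Pdia4, Canx, Manf and Pdia6. Pdia4, picked for description after its values were seen, was at 174, 129 and 151 CPM in cMo and 78.6, 91.7 and 93.0 CPM in pMo. Those that rose were Ppp1r15a, Ddit3, Atf6, Herpud1 and Sel1l. The signalling genes Xbp1, Atf4, Ern1 and Trib3 and the lumenal folding genes Calr, Hyou1 and Pdia3 were not called in pMo against cMo. Herpud1, picked in the same way, rose by 0.79 ± 0.15 in pMo. Ppp1r15a (GADD34) rose by 2.65 ± 0.60 in intMo and 2.78 ± 0.60 in pMo, and was highest in library 0 of both, at 203 and 221 CPM against 58.3 to 69.3 CPM in their other libraries. In pMo against intMo edgeR called 0 of the 26 (4.99% of all genes), and 7 had an unadjusted edgeR p under 0.05 (2619 of all 14059 genes). DESeq2 called 2 higher and 1 lower there, against 767 and 645 of all genes.

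Among the remaining HSP70 and HSP110 genes, Hspa4l (a cytosolic HSP110 relative) was at 36.5, 41.1 and 46.7 CPM in cMo, 38.4, 41.7 and 38.7 CPM in intMo, and 22.6, 25.8 and 30.8 CPM in pMo. Only the pMo libraries stood apart, below both other subsets. Hspa4l fell by 0.65 ± 0.15 in pMo against cMo (edgeR adjusted p = 0.0102), a call kept without any 1 library, and its change of -0.59 ± 0.15 against intMo was outside the call (adjusted p = 0.0616). That change was called with upper quartile scaling (edgeR adjusted p = 0.0451), DESeq2 (adjusted p = 0.00845), the library number as a block (0.0390) and libraries 1 and 2 alone (0.0350). It was not called with RLE scaling (edgeR adjusted p = 0.0570), no filter (0.0811) or the filter of 1 CPM in 3 libraries (0.0512). Of the 9 fits that leave out 1 library, only that without cMo 0 called it (0.0382, and 0.0382 to 0.228 over the 9). Hspa1l, the HSP70 gene next to Hspa1a and best known from testis, was at 3.53, 2.36 and 2.70 CPM in cMo, 1.66, 1.91 and 1.43 CPM in intMo, and 0.781, 1.65 and 1.09 CPM in pMo. Here all 3 cMo libraries were highest. Hspa1l fell by 1.28 ± 0.34 in pMo (adjusted p = 0.0192, lost without cMo 0, pMo 0 or pMo 2 and 0.0195 to 0.0681 over the 9).

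Hsph1 (HSP110), an HSF1 target and exchange factor of HSP70, was at 52.4, 41.8 and 44.4 CPM in cMo, 19.8, 34.6 and 29.2 CPM in intMo, and 29.4, 36.7 and 33.7 CPM in pMo. All cMo libraries were above all others. Hsph1 fell by 0.73 ± 0.20 in intMo (edgeR adjusted p = 0.0305), and the pMo change of -0.47 ± 0.20 was not called (adjusted p = 0.106). The intMo call was lost without 1 of 6 libraries (cMo 0, cMo 2, intMo 0, intMo 2, pMo 1 or pMo 2, adjusted p 0.0190 to 0.0845 over the 9). Its 3-unit heat shock element, TTCTGGAAAGTTC at chr5:149636288-149636300 on the minus strand, begins 15 bases after a RefSeq start. Hspa4, Hspa13, Hspa2 and Hspa12b were not called in any comparison.

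Hspa1a and Hspa1b encode the stress-inducible HSP70, the classical product of heat shock. They lie at chr17:34969190-34972156 and chr17:34956436-34959238, both on the minus strand, and the 250 bases before their starts are alike at 247 positions. They are printed because these near-identical windows belong to genes that were high in the same 2 libraries. Capitals mark the 2-unit heat shock element GAANNTTC, 104 bases before each start. This motif was found on either strand in 7.86% of all windows and in 16 of the 74 windows of members (14 genes).
Hspa1a (chr17:34972157-34972406, minus strand): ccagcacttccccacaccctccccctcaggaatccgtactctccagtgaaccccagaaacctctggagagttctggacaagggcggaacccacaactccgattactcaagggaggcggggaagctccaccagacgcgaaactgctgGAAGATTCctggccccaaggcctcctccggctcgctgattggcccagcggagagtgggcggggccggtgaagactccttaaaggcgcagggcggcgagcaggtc
Hspa1b (chr17:34959239-34959488, minus strand): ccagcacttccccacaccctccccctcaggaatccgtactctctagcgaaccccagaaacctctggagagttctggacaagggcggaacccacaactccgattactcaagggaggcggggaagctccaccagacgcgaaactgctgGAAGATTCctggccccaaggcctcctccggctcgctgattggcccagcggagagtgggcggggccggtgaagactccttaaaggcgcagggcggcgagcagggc

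Hspa1a was at 1.48, 0.703 and 1.76 CPM in cMo, 19.1, 0.849 and 0.398 CPM in intMo, and 13.1, 0.735 and 0.831 CPM in pMo. Library 0 of intMo and of pMo stood far above the other 7, which lay between 0.398 and 1.76 CPM. Hspa1b was at 4.86, 3.02 and 3.67 CPM in cMo, 6.43, 1.40 and 2.02 CPM in intMo, and 6.08, 2.35 and 1.62 CPM in pMo, and the same 2 libraries were highest. The log2 changes of Hspa1a against cMo, 2.35 ± 1.51 in intMo and 1.89 ± 1.49 in pMo, were not called, and without intMo 0 and pMo 0 in turn they turned to -1.08 and -0.73. The genes share 63.8% and 67.6% of their 31-base words with each other, so how the reads were divided between them is uncertain.

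Immediate early genes, such as Fos, Jun and Zfp36, respond within minutes to handling and other stimuli. The sum of 15 of them peaked in the same 2 libraries but otherwise did not follow Hspa1a and Hspa1b. It was 1004, 1215 and 1213 CPM in cMo, 5498, 2402 and 2587 CPM in intMo, and 5034, 2640 and 2480 CPM in pMo. Libraries intMo 0 and pMo 0 were thus the highest for this sum as well. They also had the highest sums of 14 stromal markers without Fn1, 592 and 406 CPM, and the lowest sums of 12 cell cycle genes, 482.3 and 463.1 CPM, and of 15 markers of other blood cells, 309.4 and 335.1 CPM. The part of these in the Hspa1a values was not tested.

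Dnajb1 (HSP40), a classical HSF1 target, was at 57.2, 47.9 and 46.5 CPM in cMo, 41.2, 40.2 and 34.1 CPM in intMo, and 46.5, 37.5 and 42.9 CPM in pMo, and was not called. It was highest of all in cMo 0, and library 0 was also the highest within intMo and within pMo. Bag3, an HSF1 target and HSP70 co-chaperone named after its values were seen, was at 30.3, 27.0 and 16.9 CPM in cMo, 30.3, 17.6 and 21.2 CPM in intMo, and 46.8, 27.8 and 25.9 CPM in pMo, and was not called. Library 0 was its highest in each subset. Hsph1 and Hsp90aa1 were lowest of all in intMo 0 and pMo 0, except that Hsph1 in intMo 2 was lower than in pMo 0. Over the 60 tested members, library 0 lay more than 1 log2 unit above the mean of libraries 1 and 2 for 5% in intMo and 3.33% in pMo, against 6.28% and 4.79% of all genes.

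**Figure D4:**
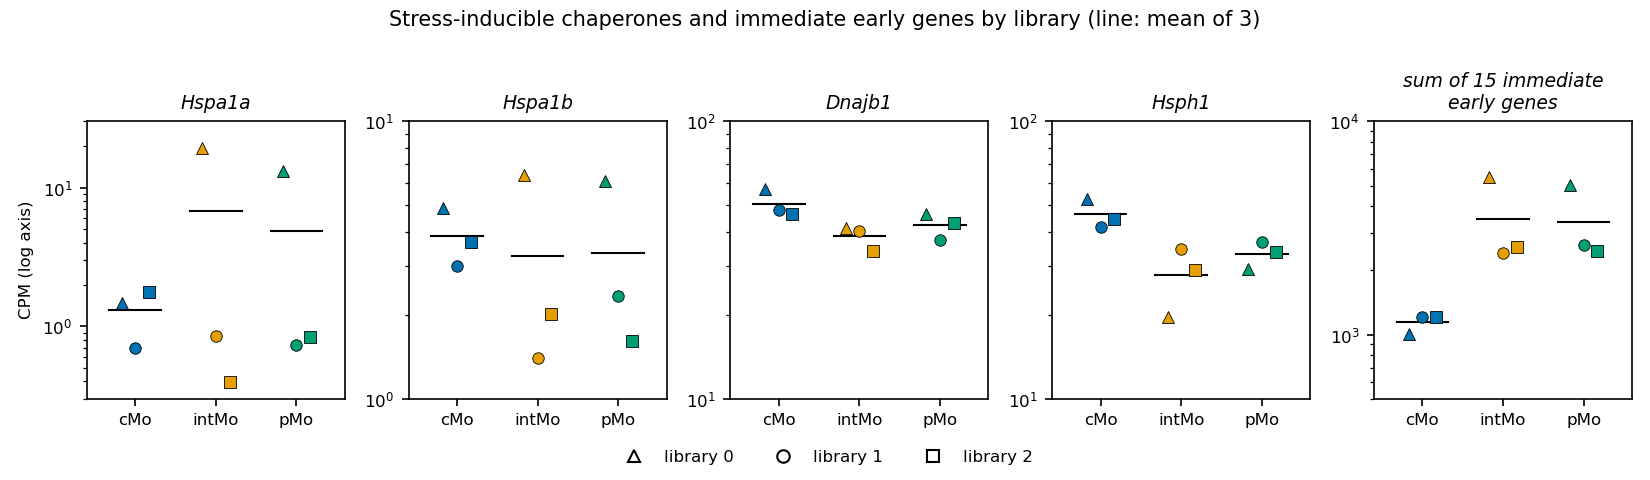
CPM (log y axis) of the stress-inducible genes Hspa1a, Hspa1b, Dnajb1 and Hsph1 and of the sum of 15 immediate early genes in each library; symbols give the library number and lines the mean of 3. Hspa1a at 19.1 and 13.1 CPM and the immediate early sum at 5498 and 5034 CPM are highest in intMo 0 and pMo 0, whereas Dnajb1 and Hsph1 are highest in cMo 0.

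Small heat shock proteins were rare, with all 8 genes together at 12.5 to 18.6 CPM in any library. Hspb6 (HSP20) was at 11.5, 5.84 and 6.59 CPM in cMo, 2.95, 4.03 and 4.28 CPM in intMo, and 3.49, 3.64 and 2.40 CPM in pMo. Every cMo library was above the rest. Hspb6 fell by 1.08 ± 0.32 in intMo (edgeR adjusted p = 0.0358) and by 1.32 ± 0.32 in pMo (adjusted p = 0.0122). The intMo change was -0.57 from libraries 1 and 2 alone (adjusted p = 0.105), and its call was also lost without cMo 0, any intMo library or pMo 1 (0.0316 to 0.106 over the 9), while the pMo call was lost without pMo 2 (0.0508, and 0.0109 to 0.0508 over the 9). The exons of Hspb6 overlap Lin37 and Proser3 on the other strand. Lin37 was called in no comparison, and Proser3 fell by 0.81 ± 0.25 in pMo against cMo. Hspb11, an intraflagellar transport protein despite its name and the most abundant small member per length, was at 6.51, 9.25 and 8.495 CPM in cMo, 12.3, 11.1 and 10.2 CPM in intMo, and 8.26, 9.03 and 8.13 CPM in pMo, and was not called.

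Hspb1 (HSP25, the mouse form of HSP27) was near the detection limit, at 0.0360, 0.106 and 0 CPM in cMo, 0.214, 0.127 and 0.431 CPM in intMo, and 0.493, 0.490 and 0.525 CPM in pMo. That is 4, 20 and 38 estimated counts per subset. It rose by 3.28 ± 0.78 in pMo against cMo (edgeR adjusted p = 0.0113). Hspb1 passed the filter on low counts only through the subsets where it was higher, so this p-value is no independent support. Under the filter of 1 CPM in 3 libraries it was not tested. Of its 31-base words 61.7% also occur in the pseudogene Hsp25-ps1. Hspb8, an autophagy-linked small member, was too low to be tested, with 0 counts in cMo, 36 in intMo and 27 in pMo. Against a floor of 3 counts in place of the 0 of cMo, Hspb8 was 13.9-fold higher in intMo and 9.98-fold higher in pMo. Of the 36 counts 19 were in intMo 0, and without it intMo was 8.86-fold higher. These values allow for counting error in cMo only. They do not cover that of the higher subset or the spread between libraries.

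Hspb1 and Hspb8 are abundant in fibroblasts and muscle. Like both genes, the summed stromal markers were lowest in cMo once Fn1 was left out. The sum of a list of 15 stromal markers without the also monocytic Fn1 was 17.3 to 27.1 CPM in cMo, 185 to 592 CPM in intMo and 202 to 406 CPM in pMo. With Fn1 it was 493.2 to 1818, 249.9 to 772.9 and 276.8 to 565.2 CPM. Without Fn1 the sum was 592, 185 and 223 CPM in intMo 0, 1 and 2, where Hspb8 was highest in intMo 0 and Hspb1 in intMo 2. In pMo 0, 1 and 2 it was 406, 254 and 202 CPM, and neither gene was highest in pMo 0. Of 13 markers tested, 9 rose in intMo and 9 in pMo against cMo (69.2%, against 14% and 17.2% of all genes), while 1 and 2 fell. Dcn was at 0 in all 9 libraries and Lum in the 3 of cMo. The part of stromal RNA in the Hspb1 and Hspb8 values was not tested, and in bulk RNA a different share of cells and a different level per cell cannot be told apart. The other small members that were not tested were Hspb2, Hspb3 and Hspb7, and Hspb3 was at 0 counts in all libraries.

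J-domain proteins choose the clients and sites of HSP70. The DNAJA genes encode its general cytosolic and mitochondrial partners. Dnaja1, one of the cytosolic partners, was at 132, 128 and 177 CPM in cMo, 102, 145 and 117 CPM in intMo, and 90.6, 129 and 142 CPM in pMo. Dnaja2, the most abundant DNAJA gene per length, was at 155, 114 and 150 CPM, 118, 149 and 125 CPM, and 142, 159 and 166 CPM in the same order. Both overlap between subsets, and neither they nor the mitochondrial Dnaja3 were called.

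The fourth DNAJA gene, Dnaja4, was at 0.108, 0 and 0.0720 CPM in cMo, 0.161, 0.424 and 0.398 CPM in intMo, and 0.575, 0.770 and 0.656 CPM in pMo, with 5, 25 and 51 counts per subset. The 3 subsets do not overlap. It rose by 2.40 ± 0.75 in intMo (edgeR adjusted p = 0.0442) and by 3.38 ± 0.71 in pMo (adjusted p = 0.00655). Dnaja4 passed the filter on low counts only through the subsets where it was higher, so these p-values are no independent support. Under the filter of 1 CPM in 3 libraries it was not tested, and with no filter the intMo call was lost (edgeR adjusted p = 0.0663). Of the fits that leave out 1 library, the intMo call was kept only without intMo 0 (0.0444 to 0.124 over the 9), and the pMo call in all. Its exons overlap Wdr61 on the other strand, which was called in no comparison.

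In the DNAJB family 1 of 10 tested genes rose in each comparison with cMo and the other 9 were not called (10% called, against 24.4% of all genes in intMo and 33.1% in pMo). Dnajb9 (ERdj4), an ER partner of BiP that targets proteins for degradation, was at 17.96, 22.3 and 28.0 CPM in cMo, 49.1, 34.3 and 28.8 CPM in intMo, and 34.5, 30.4 and 30.7 CPM in pMo. The cMo libraries were lowest, with a narrow gap to intMo 2. Dnajb9 rose by 0.72 ± 0.22 in intMo (edgeR adjusted p = 0.0452), but by 0.33 in libraries 1 and 2 alone, which was not called (0.136), and the call was kept only without cMo 2 or intMo 2 (0.0340 to 0.134 over the 9).

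Dnajb13, an axonemal J-domain protein of cilia and sperm, was at 7.16, 10.9 and 8.57 CPM in cMo, 11.9, 10.4 and 11.4 CPM in intMo, and 15.5, 16.1 and 19.2 CPM in pMo. All pMo libraries were above the other 6. Dnajb13 rose by 0.93 ± 0.19 in pMo against cMo (edgeR adjusted p = 0.00551), and this call was kept without any 1 library. Its exons overlap those of Ucp2 on the other strand. Ucp2 was far more abundant, at 931 to 1193 CPM in cMo and 1169 to 1411 CPM in pMo, and was not called (log2 change 0.30 ± 0.18, adjusted p = 0.217). The library kit keeps strand, but whether counting used it is not given, so the Dnajb13 level is uncertain. Dnajb6, the most abundant DNAJB gene per length, was at 143, 123 and 153 CPM in cMo, 125, 137 and 123 CPM in intMo, and 109, 123 and 124 CPM in pMo, and was not called.

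Of 25 tested DNAJC genes, 1 rose and 3 fell in pMo against cMo, and 1 rose and 2 fell in intMo against cMo (16.0% called against 33.1% of all genes, and 12% against 24.4%). Dnajc9, a histone co-chaperone, fell in both. It was at 73.9, 58.4 and 69.7 CPM in cMo, 16.1, 42.5 and 34.9 CPM in intMo, and 12.9, 15.3 and 15.8 CPM in pMo. The subsets step down from cMo to intMo to pMo without overlap. Dnajc9 fell by 1.11 ± 0.30 in intMo (edgeR adjusted p = 0.0260) and by 2.19 ± 0.31 in pMo (adjusted p = 0.000969), the smallest adjusted p of any member in any comparison.

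Its change in pMo against intMo, -1.09 ± 0.30, was outside the call with all libraries (edgeR adjusted p = 0.0778), and was -1.31 and called in libraries 1 and 2 alone (adjusted p = 0.000706). In intMo against cMo the change was -0.72 in those libraries (called), and with all libraries its call was lost without cMo 0, cMo 2 or intMo 2 (adjusted p 0.0144 to 0.0691 over the 9). The sum of 12 cell cycle genes moved with it, at 3277 to 3995 CPM in cMo, 482.3 to 2006 CPM in intMo and 463.1 to 788.7 CPM in pMo. All 12 fell in pMo against cMo (against 15.9% of all genes) and 5 in intMo against cMo (41.7%, against 10.4%). Their part in the Dnajc9 values was not tested.

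Dnajc10 (ERdj5), the disulfide reductase among the J-domain proteins of the ER, had another pattern. It was at 133, 111 and 125 CPM in cMo, 65.6, 92.7 and 69.6 CPM in intMo, and 108, 113 and 117 CPM in pMo. The intMo libraries were lowest and cMo and pMo overlap. Dnajc10 fell by 0.70 ± 0.15 in intMo against cMo (edgeR adjusted p = 0.0103), a call kept without any 1 library. Its change of 0.56 ± 0.15 in pMo against intMo was outside the edgeR call (adjusted p = 0.0690), and DESeq2 called it (adjusted p = 0.0116).

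Dnajc19, a subunit of the mitochondrial import motor, was at 30.7, 22.9 and 28.1 CPM in cMo, 19.2, 21.5 and 21.4 CPM in intMo, and 20.1, 18.7 and 19.8 CPM in pMo. It lay below cMo in both other subsets and fell by 0.48 ± 0.14 in pMo (edgeR adjusted p = 0.0297, lost without cMo 0, cMo 2, intMo 2 or any pMo library, 0.0149 to 0.107 over the 9). The pseudogene Dnajc19-ps shares 37.0% of its 31-base words. Dnajc5 (cysteine string protein, an exocytosis chaperone), named after its values were seen, was at 165, 169 and 150 CPM in cMo, 180, 166 and 177 CPM in intMo, and 217, 208 and 198 CPM in pMo. The pMo libraries were highest, and it rose by 0.36 ± 0.11 (adjusted p = 0.0293, lost without cMo 2, intMo 2 or any pMo library, 0.0336 to 0.0918 over the 9).

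Dnajc18, an ER membrane member, was at 8.39, 10.9 and 10.2 CPM in cMo, 16.1, 12.99 and 13.1 CPM in intMo, and 12.9, 14.3 and 13.8 CPM in pMo. It rose by 0.52 ± 0.17 in intMo at the edge of the threshold (edgeR adjusted p = 0.0493), by 0.31 in libraries 1 and 2 alone (0.102), and leaving out any 1 library ended the call (0.0562 to 0.145). Dnajc6 (auxilin, which uncoats clathrin vesicles) was low except in 1 library, at 4.54, 0.563 and 0.252 CPM in cMo, 0.0536, 0.467 and 0.398 CPM in intMo, and 0.164, 0.175 and 0.0437 CPM in pMo. It fell by 3.73 ± 1.17 in pMo (adjusted p = 0.0366), which rested on cMo 0, and the change was -1.61 without it (adjusted p = 0.199). The call was also lost without intMo 1, intMo 2 or any pMo library (0.0184 to 0.199 over the 9). Library cMo 0 also had the highest sum of 15 markers of other blood cells, 7357 CPM, led by the myeloid granule genes Mpo at 2335 CPM and Ngp at 1850 CPM, against 1241 and 1262 CPM in the other cMo libraries, and their part in the Dnajc6 value was not tested.

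Dnajc3 (p58IPK), the third member with an exact ER stress element in its promoter window, was at 145, 147 and 153 CPM in cMo, 127, 140 and 133 CPM in intMo, and 122, 128 and 133 CPM in pMo. The cMo libraries were highest, but its changes of -0.15 ± 0.10 in intMo and -0.22 ± 0.10 in pMo were not called by edgeR. Dnajc8, the most abundant DNAJC gene per length, was at 142, 123 and 160 CPM in cMo, 109, 152 and 136 CPM in intMo, and 110, 145 and 161 CPM in pMo, and was not called.

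**Figure D5:**
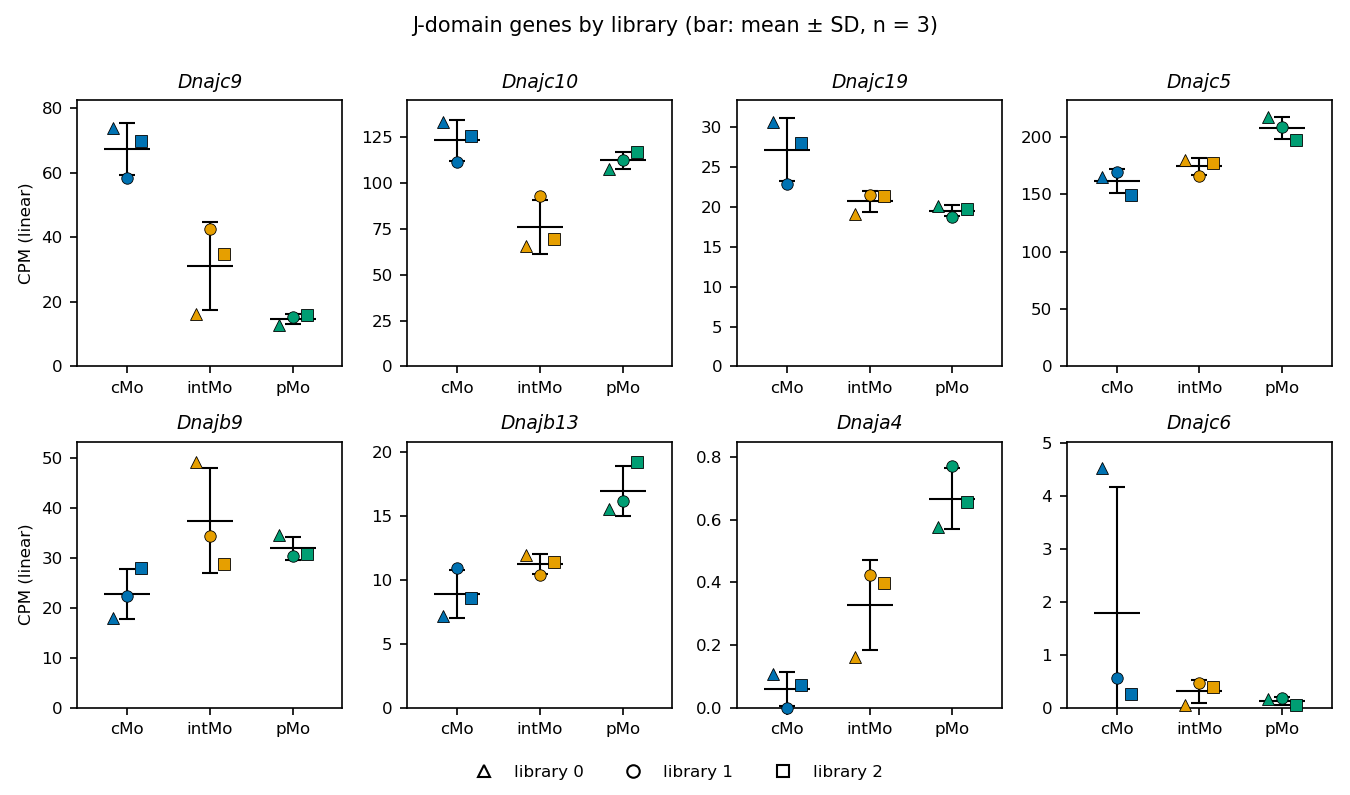
CPM (linear y axis from 0) of 8 J-domain genes in each library; symbols give the library number, long bars the mean and error bars the SD of 3 libraries (the lower SD bar of Dnajc6 in cMo would reach below 0 and ends at the axis). Dnajc9 steps down from cMo to pMo, Dnajc10 is lowest in intMo, and Dnajb13 and Dnajc5 are highest in pMo.

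The 11 members below the filter on low counts were Dnajb3, Dnajb7, Dnajb8, Dnajc22, Dnajc5b, Dnajc5g, Hspa12a and the 4 small heat shock proteins Hspb2, Hspb3, Hspb7 and Hspb8. Dnajb8, Dnajc5b, Dnajc5g and Hspb3 had 0 counts in all 9 libraries. Dnajc22 had 0 counts in cMo, 13 in intMo and 30 in pMo, which puts it 5.03-fold and 11.1-fold above the floor of 3 counts over the cMo libraries. Of the 30 counts 18 were in pMo 0, and without that library pMo was 6.53-fold higher. Without intMo 2, which held 8 of the 13, intMo was 3.32-fold higher. The counting error of intMo and pMo, which is large at so few counts, is not covered. Hspb2 had 3, 8 and 4 counts, and its ratio of intMo to cMo was 3.09 with an exact 95% counting interval of 0.743 to 18.1. Dnajb3, Dnajb7, Hspa12a and Hspb7 had at most 16 counts in any subset.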

How the data were processed

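The 9 libraries (3 of each subset) were prepared with a stranded mRNA kit, per the labels' protocols. The authors deposited a table of estimated counts per gene, made with kallisto 0.46.1 and mouse build mm10, per the submitters' processing notes. The sources used here give neither its annotation release nor a strand setting. Values that were not whole made up 25.6% to 27.5% of each library. Symbols came from GENCODE M21 (GRCm38), which matched 46005 gene IDs and not 512.

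Counts were rounded and fitted with edgeR 4.0.16 in R 4.3.3 (TMM scaling, filterByExpr by subset, robust quasi-likelihood fit of all 9 libraries with subset as the term, Benjamini-Hochberg over 14059 genes), a procedure tested on simulated data. CPM were computed from the counts with the TMM library size. No 2 libraries of a subset agreed within sampling noise (chi-square per gene 6.51 to 151.9), so all were counted separately. Shared 31-base words were counted against all other genes' GENCODE transcripts. Promoter windows and motifs are from RefSeq (GRCm38.p6), where 57 of 71 genes matched.

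The alternatives were RLE and upper quartile scaling, no filter, a filter of 1 CPM in 3 libraries, DESeq2 1.42.0, the library number as a block (same-numbered libraries deviated together in all 3 pairs of intMo and pMo, with correlations of 0.27 to 0.59, and not in every pair with cMo), libraries 1 and 2 only, and leaving out each library. The genes and lists were chosen with earlier results of these data known. The genes described in full were 16 core chaperones, up to 3 called members per family and comparison (by size of change, libraries not overlapping), the highest member of each family per length, Hsf1, and up to 2 called genes a comparison from each of the first 3 pathway lists. Dnajc5, Dnajc13, Bag3, Stip1, Ptges3, Pdia4, Herpud1 and genes given only by name or as overlapping neighbours were added after their values were seen.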

Additional observations from a re-analysis of the deposited data

How the results depend on the processing

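The fall of the 3 HSP90 genes in pMo against cMo kept its direction under every alternative run, and no scaling moved the median of all genes by more than 0.1. In pMo against intMo, members called higher and lower were 1 and 3 with DESeq2 (1412 genes in all) and 1 and 3 from libraries 1 and 2 only (2424 genes in all), and 1 was lower with upper quartile scaling. Under the 1 CPM filter 2 members were higher in pMo against cMo, as fewer low genes were tested. Over the 9 fits that leave out 1 library, members called higher and lower ranged from 0 to 2 and 1 to 8 in intMo against cMo, 0 to 1 and 0 to 1 in pMo against intMo, and 3 to 6 and 4 to 13 in pMo against cMo. The F test called 5 to 16, and all genes called in pMo against intMo were 221 to 1107. The causes were not tested.

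The library number as a replicate block gave 0 members higher and 4 lower in intMo against cMo, 1 lower in pMo against intMo, and 4 higher and 10 lower in pMo against cMo. Under the block the calls lost in intMo against cMo were those of Hsp90aa1 (edgeR adjusted p = 0.0676), Hspd1 (0.0544), Hspb6 (0.0532), Dnaja4 (0.0720), Dnajb9 (0.0681) and Dnajc18 (0.0617), with Stip1 (0.0524) outside the family, and in pMo against cMo those of Hspe1 (0.0623) and Dnajc6 (0.0735). Dnajc11 in intMo against cMo and Hspa4l in pMo against intMo (0.0390) were gained. Same-numbered libraries correlated in their deviations from the subset means at 0.27 to 0.59 between intMo and pMo, where all 3 pairs are above 0.1, though other pairs there ranged from -0.49 to 0.40. Between cMo and intMo same-numbered libraries correlated at -0.14 to 0.066 (other pairs -0.155 to 0.26). Between cMo and pMo they correlated at -0.016 to 0.23 (other pairs -0.241 to 0.113). With 3 libraries a subset, these correlations cannot settle whether same-numbered libraries belong together.

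Log2 changes that turned direction all belonged to genes not called in that comparison. From libraries 1 and 2 only, in intMo against cMo, Hspa1a was -0.995, Dnajc6 0.0784, Dnajc8 0.0385 and Dnaja2 0.0656. In pMo against intMo Hspa1a was 0.35, Dnaja1 0.0457 and Dnajc18 0.111, and in pMo against cMo Hspa1a was -0.64, Dnajc8 0.12, Hspb11 -0.0415 and Hsf1 0.0019. Upper quartile scaling gave -0.0205 for Hspa1b in pMo against intMo. Leaving out 1 library gave ranges across 0 in intMo against cMo for Hspa1a (-1.08 to 2.92), Hspa1b (-1.15 to 0.12), Hspa4l (-0.15 to 0.0276), Bag3 (-0.343 to 0.0665) and Dnajc8 (-0.21 to 0.0361). The same held in pMo against intMo for Hspa1a (-3.09 to 2.98), Hspa1b (-0.70 to 0.96), Hspa9 (-0.13 to 0.0037), Hspd1 (-0.22 to 0.0749), Dnaja1 (-0.14 to 0.16), Dnajb9 (-0.38 to 0.0142), Dnajc18 (-0.0929 to 0.0699), Dnajc8 (-0.0556 to 0.21), Ppp1r15a (-0.66 to 0.95), Stip1 (-0.24 to 0.0203) and Ptges3 (-0.27 to 0.0334). In pMo against cMo it held for Hspa1a (-0.73 to 2.42), Hspa1b (-0.94 to 0.14), Dnajc8 (-0.14 to 0.12), Hspb11 (-0.069 to 0.1706) and Hsf1 (-0.16 to 0.0499).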
